A study of Zea mays with 22 samples.

Results

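The response of maize to 2 h of UV-B at the level its titles call high was read from 2 spotted 2-colour arrays, which were chosen by title from the 22 arrays of the series. On each array, total RNA of a UV-B exposed sample competed for the same spots with RNA of a control. Array 1 carried the UV-B exposed RNA in channel 1 and array 2 carried it in channel 2. These arrays belong to a value table of 8, whose other 6 arrays hold 3 further regimes of 2 arrays each, set out the same way: 4 h medium, 8 h low and 8 h high UV-B, each against a control. For the 2 h arrays the labels used here name the species and the exposure, but no organ, line, plant age or irradiance. Nothing in them says whether the 2 arrays came from separate plants or from the same RNA with the channels exchanged, so p-values measure only the spread between arrays, which may be technical.

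UV-B is the short-wave, most energetic part of the sunlight that reaches the ground. It forms photoproducts in DNA and is sensed in plants by the photoreceptor UVR8, which acts on transcription. Leaves answer it with phenolic sunscreens, repair enzymes and changes in growth, and long or strong exposure also brings out genes of stress and defence. A 2-colour ratio compares 2 RNAs at 1 spot, so it shows unequal abundance and gives no level of a gene. For that reason the tissue could not be checked against levels of its markers.

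The array carried 5760 probes, each printed as 3 neighbouring spots in 8 blocks, and 404 of them were paired with exactly 1 gene symbol, for 329 genes. Values were present in 87.8% of the spots of array 1 and 89.5% of those of array 2 (83.0% to 91.7% over the table). The median SD among the 3 spots of a probe was 0.0391 and 0.0415 on the log2 scale, whereas the SD between probes was 0.323 and 0.379. Each array was set to a median of 0, and every ratio below is log2. The files do not state which way the ratios run. A positive value is read here as more RNA after UV-B, on the assumption that the authors had already turned the arrays with exchanged channels. The values of both arrays had a Pearson correlation of 0.805 (Spearman 0.703) across 5258 probes, which share arrays and are not independent replicates, and 75.1% of these probes had the same sign on both. With the second array of every regime turned the other way, limma made 0 calls, with 9 probes at an unadjusted p under 0.05, against 1355 as deposited. Turning 1 of 2 correlated arrays sets them against each other. The outcome therefore cannot decide whether the arrays had been turned or which way the ratios run.

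After 2 h, more probes passed the test with a positive than with a negative ratio, and the most extreme ratios were positive, while the median over all probes tested was -0.01. The Rab-type GTPase gene ypt1 and the MADS-box gene zmm16 had the largest ratios among named genes, followed by the invertase gene ivr2, the seed globulin gene glb1 and the nitrite reductase gene NIR. The largest negative ratios among named genes were those of the cellulose synthase gene CesA-6 and of aba1, a gene also catalogued as asr1. Of 5199 probes tested, 714 (13.7%) differed from 0 at a Benjamini-Hochberg adjusted p under 0.05 in limma, the threshold used throughout, with 573 positive (11.0%) and 141 negative (2.71%). Among named probes 45 of 374 did so, 28 positive (7.49%) and 17 negative (4.55%), which belonged to 27 and 17 genes of 307 tested. Named probes were thus called positive less and negative more often than all probes, a difference that was not tested. Positive calls had a median of 0.69 and negative calls one of -0.45, and all 714 kept their sign on both arrays. At least 1 on both arrays was reached by 84 probes, and -1 or lower on both by 0. The count fell to 290 with array 1 of the 2 h regime left out and to 247 with array 2 left out, where the remaining array was assumed to vary like those of the other regimes. It rose to 1145 without either array of 8 h low, and dropping the term for channel orientation gave 376 (361 positive and 15 negative). The split of 573 to 141 moved to 838 to 584 with block medians at 0, to 782 to 482 with a running median at 0 and to 1229 to 1142 with array weights. Of the 45 named calls, 19 passed without the orientation term. Among the 17 negative ones only those of CesA-6 and GT1 did.

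**Figure D1:**
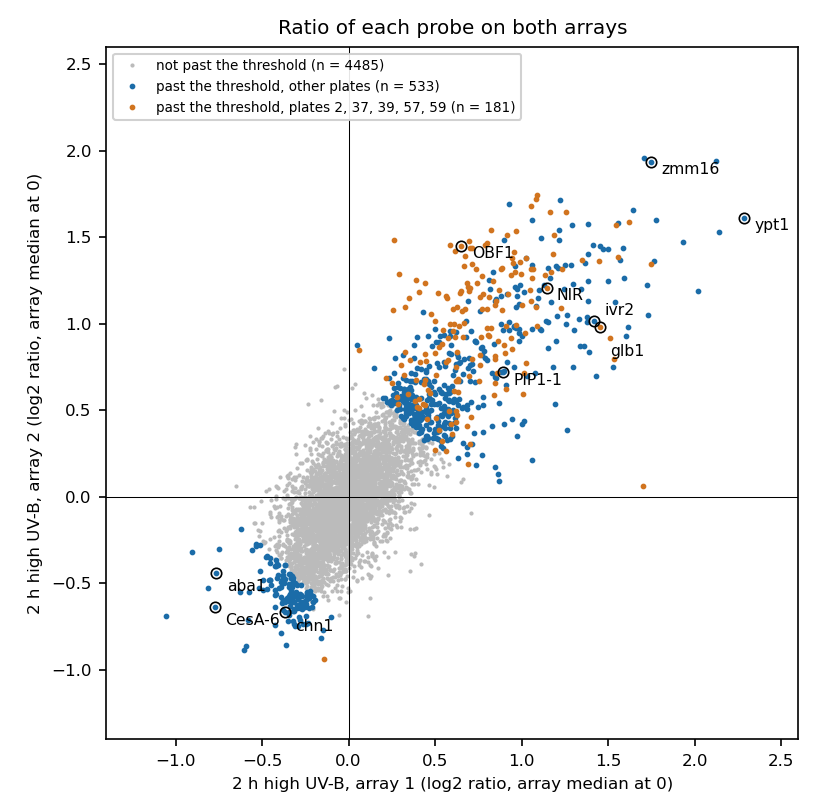
Each point is a probe tested, with its log2 ratio on array 1 (x axis) and array 2 (y axis) of 2 h high UV-B, each array's median at 0. Grey points did not pass the threshold. Blue (533) and orange (181) points did, the orange ones from 5 inferred source plates with a median above 0.3 on both arrays. The cloud reaches 2.03 (mean of both arrays) on the positive side and -0.87 on the negative side, and circles mark 10 named probes.

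The gene ypt1 encodes a small GTPase of the Rab/Ypt family, which directs vesicles between membranes. Its ratio was 2.28 on array 1 and 1.61 on array 2. The mean was 1.95 ± 0.15 (SE), a 3.86-fold difference (limma adjusted p = 1.57e-14). Both arrays were far above the median of all probes, -0.01. Each SE and p-value given here comes from the limma fit to all 8 arrays, with spread shared between probes. It does not measure how closely the 2 arrays agree for 1 probe. The probe of sgb102, at 0.86 and 0.13, also had an SE of 0.15. Of 6 tested probes for small GTPases and trafficking, ypt1 alone passed the threshold, and the list's median was -0.02. The related gene yptm3 had ratios of -0.20 and 0.11. Counts for this and later lists are to be read against all named probes, of which 7.49% were positive and 4.55% negative. Over all probes tested the shares were 11.0% and 2.71%.

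The gene zmm16 belongs to the B class of floral MADS-box genes, which specify organs of the flower together with partner proteins of the same family. It had ratios of 1.75 and 1.94, a mean of 1.84 ± 0.14 (SE) and a 3.58-fold difference (limma adjusted p = 1.57e-14). Of the named probes only ypt1 lay above it in mean ratio. The MADS-box gene m1 also passed the threshold at 0.24 and 0.54, though with an adjusted p of 0.0471. Others of the family did not: M8 had 0.35 and 0.11, ZAG3 0.20 and 0.09, and m28 -0.18 and -0.38. MADS-box gene si1 had -0.21 and -0.52 (adjusted p = 0.0615). Over the 15 tested probes of floral and pollen genes, 2 were called positive (m1 and zmm16) and 0 negative, with a median of 0.07, so the size of the zmm16 ratio was not that of the list.

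In the list of transcription factors, 3 of 21 probes were positive (m1, zmm16 and OBF1), 1 was negative, and the median was -0.04. These counts stand beside 7.49% positive and 4.55% negative among all named probes. OBF1, a bZIP protein that binds ocs elements of promoters, had 0.65 on array 1 and 1.45 on array 2 (mean 1.05 ± 0.14 SE, limma adjusted p = 4.91e-08). Its arrays agreed in sign but differed in size, and its probe lay on a print plate with a positive offset, described below. The related OBF3.1 had 0.17 and -0.02. The gene dbf1, whose product binds dehydration-responsive promoter elements, was on the negative side at -0.32 and -0.51. The MYB gene myb31, a repressor of lignin genes in maize, had -0.41 and -0.28 and did not pass.

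**Figure D2:**
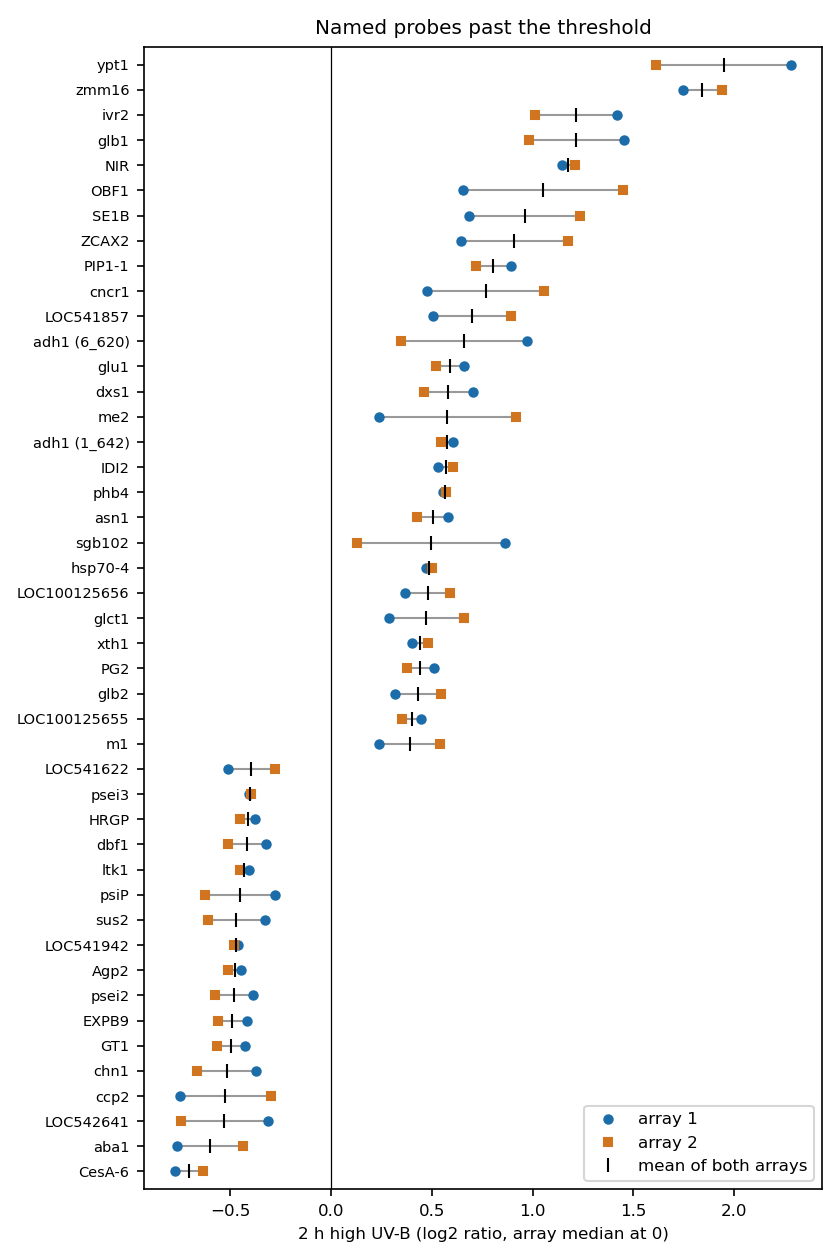
Log2 ratios of the 45 named probes past the threshold at 2 h high UV-B, with array 1 as a circle, array 2 as a square and the mean of both as a tick. The 2 probes of adh1 carry their block and position within the block in brackets. The 2 arrays of ypt1 and zmm16 lie above 1.6, and all points of the 17 negative probes lie between -0.77 and -0.28.

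Sucrose-splitting and starch genes went both ways. The gene ivr2 encodes a soluble acid invertase of the vacuole, which cleaves sucrose to glucose and fructose, and its probe had 1.42 and 1.01 (mean 1.22 ± 0.14 SE, 2.32-fold, limma adjusted p = 3.05e-09). Another ivr2 probe had 0.29 and 0.36 and did not pass (adjusted p = 0.148), so the 2 probes shared the sign but not the size. Sucrose synthase, the other route of sucrose cleavage, was on the negative side for sus2 with -0.33 and -0.61 (mean -0.47 ± 0.14 SE, adjusted p = 0.012). One sus1 probe had -0.31 and -0.36 (adjusted p = 0.0974) and the other 0.32 and 0.13. Agp2, a subunit of the ADP-glucose pyrophosphorylase that commits carbon to starch, had -0.45 and -0.51 (mean -0.48 ± 0.14 SE, adjusted p = 0.0115), while its other probe had 0.02 and 0.00. Of 15 tested probes in the list 1 was positive, 2 were negative and the median was 0.01.

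The globulins encoded by glb1 and glb2 are storage proteins of the maize embryo. The glb1 probe that passed had 1.45 and 0.98 (mean 1.22 ± 0.14 SE, 2.32-fold, limma adjusted p = 8.94e-10), and another glb1 probe had 0.14 and 0.21 (adjusted p = 0.467). One glb2 probe had 0.32 and 0.55 (adjusted p = 0.0215), whereas the other was negative at -0.15 and -0.51 (adjusted p = 0.0949). The probes of each gene therefore differed, for glb2 in sign. Legumin leg1, a seed storage protein of another class, had 0.08 and 0.08. Of the 5 seed marker probes 2 were called positive and 0 negative (median 0.18), beside 7.49% and 4.55% of all named probes. Of the 3 root marker probes 0 were called, and their means lay between -0.16 and -0.04.

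Nitrogen genes gave 2 positive calls among 10 tested probes, beside 7.49% of all named probes, and a list median of -0.06. NIR encodes nitrite reductase, the plastid enzyme that reduces nitrite to ammonium, and had 1.14 and 1.21 (mean 1.18 ± 0.14 SE, 2.26-fold, limma adjusted p = 2.84e-09). Another NIR probe had -0.16 and -0.03 (adjusted p = 0.726). The asparagine synthetase gene asn1 had 0.58 and 0.43 on the probe that passed and -0.25 and -0.35 on the other (adjusted p = 0.141), which is the opposite sign. The glutamine synthetase genes stayed nearer to 0, with gln3 at -0.16 and -0.07, gln4 at -0.18 and 0.06 and GLN6 at -0.20 and 0.07.

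**Figure D3:**
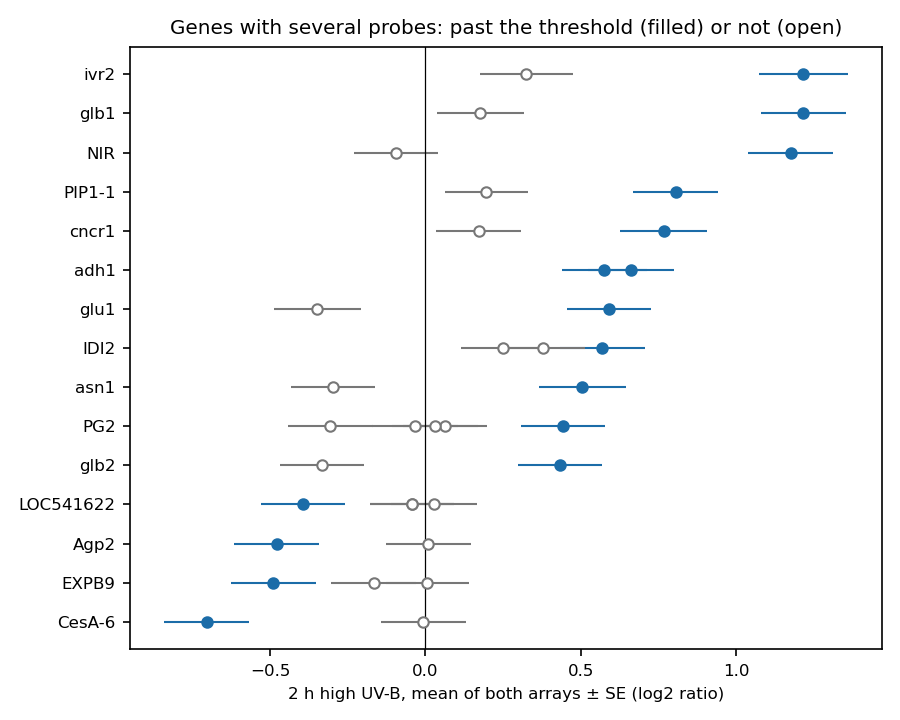
Mean log2 ratio of 2 arrays at 2 h high UV-B, with ± SE from the limma fit to all 8 arrays. Shown is every tested probe of the 15 genes that had several probes and at least 1 past the threshold. Filled points passed and open points did not. Both probes of adh1 passed, and in 8 of the 15 genes a tested probe lay on the opposite side of 0.

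This difference between probes of a gene was frequent. Among 53 genes with several tested probes (120 probes), 15 had a call, and 1 of them, adh1, had calls from 2 probes. In 8 of the 15 another tested probe had the opposite sign. The median range between probes of a gene over all 53 was 0.24. For comparison, 7 clones that were printed at 2 places differed by 0.00697 to 0.25 (median 0.0489), and 0 of these probes were called. The largest differences, 0.25 for pht7 and 0.0953 for PG2, were between inferred print plates 16 and 17, described below. Their plate medians were 0.21 and 0.25, and -0.02 and -0.01. The prints of eno1, Acc-1, thi1-2, spp1 and NMP1 shared a block, so these pairs sample print position narrowly. For 29 called genes there was 1 tested probe and hence no second reading. The alcohol dehydrogenase gene adh1, known for its induction under low oxygen, had 0.97 and 0.35 on 1 probe (mean 0.66 ± 0.14 SE, limma adjusted p = 0.000305) and 0.60 and 0.55 on the other (mean 0.58 ± 0.14 SE, adjusted p = 0.00166).

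Among water channels and transporters 3 probes passed the threshold, all positive. PIP1-1, an aquaporin of the plasma membrane, had 0.89 and 0.72 (mean 0.81 ± 0.14 SE, 1.75-fold, limma adjusted p = 8.63e-06), and its other probe had 0.24 and 0.15 (adjusted p = 0.385). The other 13 aquaporin probes did not pass, and TIP1-1 and PIP1-3, lowest in the list, each had one probe below -0.3 on both arrays. Their other probes had means above 0, with 0.21 and 0.02 for TIP1-1 and -0.07 and 0.64 for PIP1-3. Aquaporins as a list had 1 positive and 0 negative calls among 15 probes, 10 of them below 0, with a median of -0.10. That split was 1 and 3 with block medians at 0, 1 and 2 with plate medians at 0, 1 and 1 with the running median and 3 and 6 with array weights. Among transporters 2 of 12 were called positive, beside 7.49% of all named probes, and the median was -0.02. ZCAX2, a cation/proton exchanger, had 0.64 and 1.18 (mean 0.91 ± 0.14 SE, adjusted p = 1.11e-06), and the plastid glucose translocator gene glct1 had 0.29 and 0.66. The proton pump gene vpp1 of the vacuole had -0.37 and -0.28 (adjusted p = 0.107).

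Cell wall genes showed both signs, with 2 positive and 3 negative calls among 18 probes and a median of -0.04. The shares over all named probes were 7.49% and 4.55%. CesA-6, a catalytic subunit of cellulose synthase, had the lowest ratio of all named probes at -0.77 and -0.63 (mean -0.70 ± 0.14 SE, limma adjusted p = 8.92e-05). A different CesA-6 probe had 0.11 and -0.12, and CesA-5, CesA-8 and CesA-9 had values between -0.17 and 0.04. The negative ratio was therefore seen at 1 of the 2 CesA-6 probes. EXPB9, a beta-expansin that loosens grass cell walls, had -0.42 and -0.56 (mean -0.49 ± 0.14 SE, adjusted p = 0.00963), with its other probes at -0.17 and 0.01 in mean. HRGP, a hydroxyproline-rich structural protein, had -0.38 and -0.45. On the positive side, xth1, a xyloglucan-remodelling enzyme, had 0.40 and 0.48, and PG2, a pectin-degrading polygalacturonase, had 0.51 and 0.37 on 1 probe. The other 4 tested PG2 probes had means from -0.31 to 0.06. With plate medians at 0 both positive calls were lost, at a mean of 0.21 for xth1 (adjusted p = 0.402) and 0.21 for PG2 (adjusted p = 0.378), and so were those of EXPB9 (-0.37, adjusted p = 0.079) and HRGP (-0.26, adjusted p = 0.253). Both xth1 and PG2 sat on plate 16, whose medians were 0.21 and 0.25.

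Genes in the list of defence and proteinase inhibitors were on the negative side or near 0, a list without glu1, which is described below. Of 7 tested probes 0 were positive and 3 negative (chn1, psei2 and psei3), with a median of -0.25 against -0.01 over all probes. Among all named probes 7.49% were positive and 4.55% negative. The chitinase gene chn1, whose product cuts fungal chitin, had -0.37 and -0.67 (mean -0.52 ± 0.14 SE, limma adjusted p = 0.00932). The cystatin genes psei2 and psei3, inhibitors of cysteine proteases, had -0.39 and -0.58 (mean -0.48 ± 0.14 SE, adjusted p = 0.01) and -0.41 and -0.40 (adjusted p = 0.0443). A further cystatin gene, psei1, had probes at -0.23 and -0.27 and at -0.08 and -0.04. The pathogenesis-related genes prp2 and pr5 lay between -0.07 and 0.04. With plate medians at 0, the calls of psei2 and psei3 were lost (adjusted p = 0.0509 and 0.249), and with block medians or a running median at 0 that of chn1 was (adjusted p = 0.0604 and 0.0656). Without the orientation term no probe of this list passed. The sign of all 3 was negative under each of these settings. Cysteine protease gene ccp2, also listed as see1, was negative too, at -0.75 and -0.30 (mean -0.52 ± 0.13 SE, adjusted p = 0.00383), while the protease genes ccp1, vpe1 and mir3 did not pass.

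Other negative calls covered several functions. The aba1 probe, for a protein of the abscisic acid-, stress- and ripening-induced type by its synonym asr1, had -0.76 and -0.44 (mean -0.60 ± 0.14 SE, limma adjusted p = 0.000928). It was the 1 call among 9 probes for hormones and lipid signals. Jasmonate synthesis genes of that list did not pass, with aos1 at -0.20 and -0.31, opr6 at -0.04 and 0.09 and opr8 at -0.09 and -0.01. The receptor-like kinase gene ltk1 had -0.41 and -0.45. Of genes whose role is not given here, LOC542641 had -0.31 and -0.75 (mean -0.53 ± 0.14 SE, adjusted p = 0.00437), GT1 -0.43 and -0.57 (mean -0.50 ± 0.14 SE, adjusted p = 0.00761) and LOC541942 -0.46 and -0.48 (mean -0.47 ± 0.14 SE, adjusted p = 0.0197). Also negative were psiP at -0.28 and -0.62 (mean -0.45 ± 0.14 SE, adjusted p = 0.0187) and 1 of 4 LOC541622 probes at -0.51 and -0.28, the other 3 of which had means from -0.04 to 0.03.

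Phenolic metabolism was covered by 4 probes, all above 0, of which 1 was called (median 0.20). That probe, of the cinnamoyl-CoA reductase gene cncr1 at the entry to the lignin branch, had 0.48 and 1.06 (mean 0.77 ± 0.14 SE, limma adjusted p = 4.24e-05), and another cncr1 probe had 0.27 and 0.07. PAL1, for the first enzyme of the pathway, had 0.18 and 0.19, and pOMT1 had 0.19 and 0.23 (adjusted p = 0.351). The called cncr1 probe sat on a plate with a positive offset, and with plate medians at 0 its mean was -0.12 (adjusted p = 0.69).

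Further positive calls belonged to none of these groups. LOC541857 had 0.50 and 0.89 (mean 0.70 ± 0.14 SE, limma adjusted p = 8.59e-05). The beta-glucosidase gene glu1, whose enzyme releases benzoxazinoid defence compounds from their glucosides, had 0.66 and 0.52, while its other probe had -0.21 and -0.49 (adjusted p = 0.091). Other probes included dxs1, for the first step of the plastid isoprenoid pathway, at 0.71 and 0.46. The prohibitin gene phb4 had 0.56 and 0.57, and IDI2 had 0.53 and 0.61 with its other probes at 0.38 (adjusted p = 0.0558) and 0.25 in mean. SE1B had 0.69 and 1.23 (mean 0.96 ± 0.14 SE, adjusted p = 3.01e-07) and no value on its other probe. The remaining pair without a role given here, LOC100125656 and LOC100125655, had 0.37 and 0.59 and 0.45 and 0.35. With plate medians at 0 the calls of phb4 (0.30, adjusted p = 0.183), IDI2 (0.34, adjusted p = 0.108), LOC100125656 (0.41, adjusted p = 0.086) and LOC100125655 (0.13, adjusted p = 0.637) were lost.

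Lists for photosynthesis, protein folding and chromatin each held 1 call, to be read against the 11.0% of all probes and 7.49% of named probes called positive. Of 16 probes for photosynthesis and chlorophyll, 1 was positive, the malic enzyme gene me2 at 0.24 and 0.92 (adjusted p = 0.00474), and 8 lay on each side of 0 with a median of 0.00. The light-harvesting gene lhcb5 had -0.34 and -0.36 (adjusted p = 0.111), and rbcS, the small subunit of Rubisco, had -0.08 and -0.01. Protein folding had 1 positive call among 8 probes, hsp70-4, a chaperone of the HSP70 family, at 0.47 and 0.50. The calreticulin gene CRT and the calnexin gene CNX had -0.04 and -0.05, and 0.14 and 0.05. Chromatin genes had 1 positive call among 22 (median 0.04), sgb102, which was 0.86 on array 1 and 0.13 on array 2. Other chromatin genes high on both arrays were mbd111, a methyl-CpG-binding protein, at 0.36 and 0.36 on 1 probe, and dmt101 at 0.32 and 0.43 (adjusted p = 0.0719), neither past the threshold.

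Besides the root markers, lists with 0 calls by limma were translation (13 probes, median 0.01), oxidative stress and detoxification (10, median -0.05), sulfur and methionine (5, median -0.18) and cytoskeleton (5, median -0.15). At an unadjusted p under 0.05 they held 0, 3, 1 and 1 probes, and the root list 0. These zeros depended on the setting. With block medians at 0 oxidative stress had 3 negative calls and sulfur 1, and with plate medians at 0 the root list had 1 negative. With the running median translation had 1 of each sign, oxidative stress 2 negative, sulfur 1 negative and the root list 2 negative. With array weights translation had 2 positive, oxidative stress 3 negative, cytoskeleton 2 negative, and sulfur 1 positive and 3 negative. The nearest to the threshold in these lists, with array medians at 0, was gsh2, of glutathione synthesis, at -0.25 and -0.53 (limma adjusted p = 0.0512). The superoxide dismutase gene Sod4A had -0.18 and -0.39, and the catalase gene cat1 0.16 and 0.11. A ratio that did not pass does not show equal abundance, since the SE of a named probe was near 0.14 and the smallest positive call was 0.38.

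Most of the largest ratios belonged to probes without a gene name here, as did most probes tested, since 374 of 5199 were named. The highest of all was 2.12 on array 1 and 1.94 on array 2 (mean 2.03 ± 0.15 SE, limma adjusted p = 1.18e-14), at position 626 of block 8. Among unnamed probes, positions 272 of block 8 (mean 1.84), 31 of block 5 (1.83), 300 of block 8 (1.70), 590 of block 4 (1.69) and 507 of block 8 (1.65) came next. Position 181 of block 4 had a mean of 1.61, position 682 of block 7 also 1.61, position 296 of block 1 had 1.57 and position 523 of block 8 had 1.56. Each of these 10 was at least 1.19 on both arrays, and 5 of them lay in block 8. That block held 685 of the 5199 tested probes and 78 of the 573 positive calls. The lowest unnamed probes were position 368 of block 4 at -1.06 and -0.69 (mean -0.87 ± 0.14 SE, adjusted p = 2.97e-06), 238 of block 3 (-0.75), 2 of block 4 (-0.73), 346 of block 6 (-0.67) and 95 of block 3 (-0.65). The other 5 of the 10 lowest unnamed probes, in blocks 1, 3, 6 and 7, had means between -0.61 and -0.58.

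Calls of both signs were unevenly spread over the array. Negative calls took 42 of 630 tested probes in block 4 and 37 of 664 in block 6. In blocks 7 and 8 they took 7 of 700 and 4 of 685, and the other blocks lay between. Probes that share 12 consecutive positions in all 8 blocks were taken as 1 source plate of 96 wells, which the print order implies and the files do not state. On 5 of 60 such plates (2, 37, 39, 57 and 59) the plate median was above 0.3 on both arrays. Plates 37 and 39 stood highest, at 0.69 and 1.08, and 0.62 and 0.97, and 49 of 63 and 49 of 67 of their tested probes were called positive. Plate 2 had medians of 0.33 and 0.39, plate 57 of 0.46 and 0.33 and plate 59 of 0.39 and 0.32. The 5 plates held 304 of the 5199 tested probes (5.85%) and 180 of the 573 positive calls (31.4%), with 1 negative call. On the other 55 plates 393 of 4895 probes were positive (8.03%), and plate medians ran from -0.20 to 0.23 on array 1 and from -0.22 to 0.33 on array 2. Leaving the 5 plates out of the fit gave 455 calls (348 positive and 107 negative). A printed neighbour called to the same side was found for 253 of the positive calls (44.2%) and 24 of the negative calls (17.0%). Over all probes tested 11.0% were positive and 2.71% negative, so these 2 shares cannot be compared directly. By plate, negative calls reached 10 of 94 tested probes on plate 12, while many later plates, such as 38, 40 and 45, had 0.

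**Figure D4:**
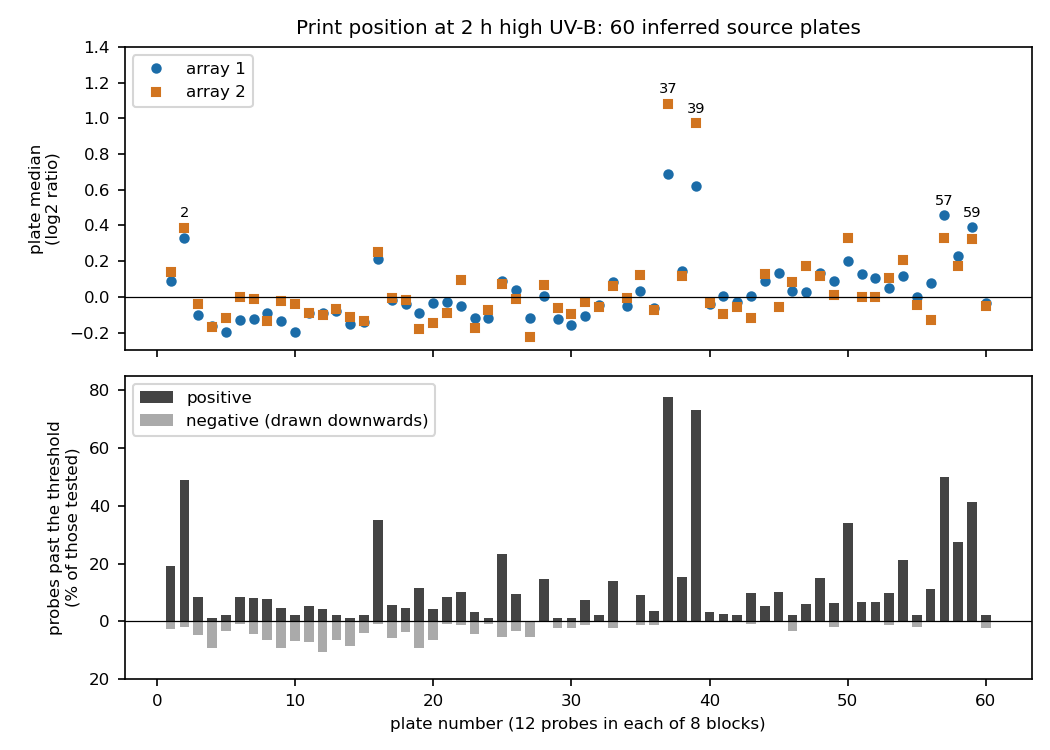
Top, median log2 ratio of each of 60 inferred source plates on array 1 (circles) and array 2 (squares) of 2 h high UV-B. Bottom, percent of each plate's tested probes past the threshold, positive upwards and negative downwards. Plates 37 and 39 reach 77.8% and 73.1% positive.

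The same plates were also poor in values. Blank probes on the 6 arrays of the other regimes made up 42.0% of plate 2, 33.0% of plate 37, 26.0% of plate 39, 25.5% of plate 57 and 42.9% of plate 59. A blank on at least 1 of those 6 arrays occurred for 90 of the positive calls (15.7%), 6 of the negative calls (4.26%) and 375 of the 4485 probes not called (8.36%). The part of print position in ratios of either sign, and of blank spots in the positive ratios, was not tested. Of the named calls, 7 lay on those plates: NIR, SE1B and cncr1 on plate 37, OBF1 and ZCAX2 on plate 39, and glb1 and dxs1 on plate 57. With every plate median at 0, glb1 kept a mean of 0.86 (limma adjusted p = 2.82e-06). The other named calls there lost theirs, with NIR at 0.29 (adjusted p = 0.212), OBF1 at 0.27 (adjusted p = 0.241), dxs1 at 0.23, ZCAX2 at 0.13 and SE1B at 0.08 in mean. By the same measure ypt1 (plate 54) was 1.79, zmm16 (plate 10) 1.96, ivr2 (plate 31) 1.29 and PIP1-1 (plate 16) 0.58, each still past the threshold. The losses were not confined to the 5 plates: of 38 named calls on other plates, 19 passed and 19 did not with plate medians at 0. Of those not given above, sus2 had a mean of -0.38 (adjusted p = 0.0618), GT1 -0.39 (adjusted p = 0.0588), LOC542641 -0.39 (adjusted p = 0.0508) and psiP -0.35 (adjusted p = 0.0953). The remaining ones had means of 0.31 for me2 (adjusted p = 0.225), 0.12 for m1 (adjusted p = 0.667), 0.27 for glb2 (adjusted p = 0.222), -0.31 for LOC541942 (adjusted p = 0.176) and -0.26 for LOC541622 (adjusted p = 0.259).

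The other regimes of the table show where the 2 h ratios stood apart. Each comparison is a contrast within the limma fit over all 8 arrays, and all of them share the 2 h arrays. Against 4 h medium, 349 of 5159 probes differed (6.76%; 340 higher at 2 h, 6.59%, and 9 lower, 0.174%), and against 8 h low, 252 of 4771 (5.28%; 239 higher, 5.01%, and 13 lower, 0.272%). Against 8 h high, which the titles give the same level word at a longer exposure, 579 of 5061 differed (11.4%), with 428 higher at 2 h (8.46%) and 151 lower (2.98%). Above all 3 other regimes at once were 188 of 4728 probes (3.98%), of which 67 lay on the 5 plates with a median above 0.3 on both arrays. Below all 3 was 1 probe (0.0212%), unnamed and not itself called at 2 h. The count of probes apart from all 3, 189, was 74 without the orientation term, 106 without the 5 plates, 101 or 102 with either 2 h array left out, and 101 or 102 with either 8 h high array left out.

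The named probes above all 3 other regimes were those of ypt1, zmm16, ivr2 and glb1, out of 344 with all 3 contrasts. The ypt1 ratios were -0.09 and 0.28 at 4 h medium, 0.23 and 0.26 at 8 h low and 0.02 and 0.29 at 8 h high. The lower of its 2 h values, 1.61, was above each of these 6. For zmm16 the values were -0.03 and 0.23 at 4 h medium, 0.56 and 0.26 at 8 h low and -0.10 and -0.25 at 8 h high, so that its sign at 8 h high was opposite to that at 2 h. The ivr2 probe had -0.02 and 0.20, -0.09 and 0.49, and -0.25 and -0.20 in the same order. The glb1 probe had -0.03 and -0.34, 0.47 and -0.24, and 0.07 and -0.20. For none of these 4 probes did an array of another regime reach its lower 2 h value. They were chosen by tests on these same arrays, which favour that order, so it adds no separate evidence. Their differences from 8 h high were 1.79 ± 0.21 (SE) for ypt1, 2.02 ± 0.20 for zmm16, 1.44 ± 0.20 for ivr2 and 1.28 ± 0.19 for glb1, with limma adjusted p-values of 9.87e-09, 2.61e-10, 6.11e-07 and 2.31e-06.

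**Figure D5:**
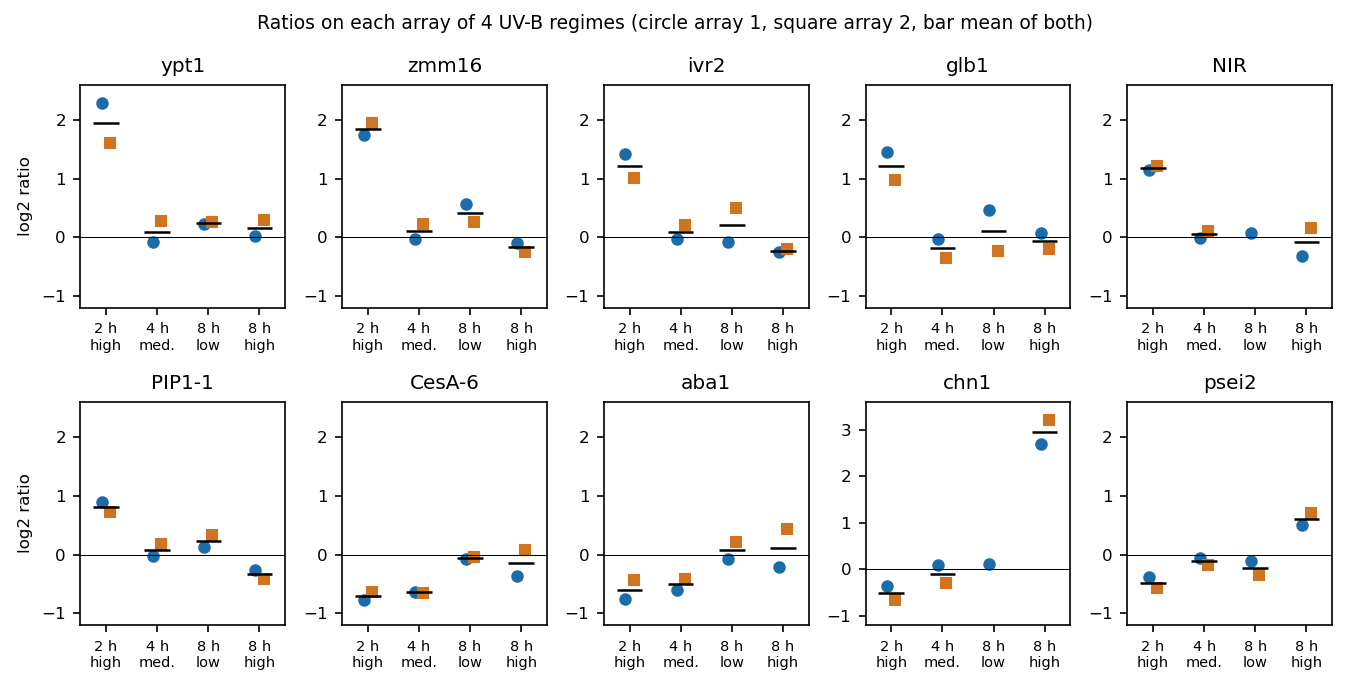
Log2 ratio of 10 named probes on each array of the 4 regimes (circle array 1, square array 2, bar mean of both where both have a value). The 2 h points of ypt1, zmm16, ivr2 and glb1, chosen by tests on these same arrays, lie above all others of the same probe. The gene chn1, drawn on a taller axis, reaches 2.70 and 3.20 at 8 h high.

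The opposite pattern was led by chn1. At 2 h it was -0.37 and -0.67, at 4 h medium 0.10 and -0.30, and on the 1 array of 8 h low with a value 0.11. At 8 h high it stood at 2.70 and 3.20, a difference from 2 h high of -3.47 ± 0.21 (SE, limma adjusted p = 8.5e-18). The cystatin gene psei2 moved the same way on a smaller scale, from -0.39 and -0.58 at 2 h to 0.50 and 0.71 at 8 h high, with -0.06 and -0.18 at 4 h medium. The negative ratios of chn1 and psei2 at 2 h thus stood beside positive ratios of both at 8 h high.

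Some negative ratios at 2 h were also present in another regime. CesA-6 had -0.64 and -0.65 at 4 h medium, close to its 2 h values, and -0.07 and -0.05 at 8 h low. Agp2 was below 0 on all 8 arrays, at -0.36 and -0.78 at 4 h medium, -0.11 and -0.30 at 8 h low and -0.63 and -0.49 at 8 h high, and its difference between 2 h and 8 h high was 0.08 ± 0.19 (SE, adjusted p = 0.85). The aba1 probe had -0.60 and -0.41 at 4 h medium, -0.08 and 0.22 at 8 h low and -0.21 and 0.44 at 8 h high. For sus2 no array of the other 3 regimes was below -0.02, and the difference from 8 h high passed at -0.57.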

How the data were processed

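Total RNA was compared on 2-colour arrays. The authors deposited 1 log2 ratio per spot, as the values themselves show; background correction, normalization and filters before deposit are not given in the sources used here. On array 1 of 2 h high, 58.3% of the values that recurred were, after a constant, log2 ratios of whole numbers up to 400 (within 2e-09), against 4.17% for the natural log and 2.08% for log10, and array 2 had too few repeats. Each run of 3 spots was averaged, each array was centred on its median, and limma 3.58.1 in R 4.3.3 (lmFit, eBayes, tested on simulated data) fitted 4 regime means and a channel-orientation term to all 8 arrays, with Benjamini-Hochberg adjustment over all probes. No intensities were used, so dim spots were not filtered. Gene symbols came from the platform annotation, and 314 of 329 genes matched the reference. All single-gene probes past the threshold are named, the 12 most positive and 12 most negative with statistics, with up to 10 unnamed probes a side. The exposure, gene lists and tests were chosen with earlier results of these data known.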

Additional observations from a re-analysis of the deposited data

Results flagged for a closer look

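The tests of the difference between 2 h high and 8 h high singled out 428 probes with a higher ratio at 2 h and 151 with a lower one, and 188 probes above and 1 below all 3 other regimes. Among named probes called at 2 h, the differences (log2, 2 h high minus 8 h high) on the negative side were -3.47 for chn1, -1.09 for psei2, -0.82 for LOC541942, -0.77 for ccp2, -0.71 for aba1, -0.61 for psei3, -0.58 for LOC542641 and -0.57 for sus2. On the positive side they were 2.02 for zmm16, 1.79 for ypt1, 1.44 for ivr2, 1.30 for OBF1, 1.28 for glb1, 1.26 for NIR, 1.14 for PIP1-1, 0.83 for cncr1, 0.70 for glu1, 0.63 for LOC541857 and 0.57 for IDI2. These probes were selected on the 2 h arrays, which the contrast uses again, and this favours large differences. Over all 366 named probes with this contrast, called at 2 h or not, 15 were higher at 2 h and 18 lower. Medians of the inferred plates were unequal on the 2 h arrays, as described above, and on the 8 h high arrays. Plate 4, which held aba1 and LOC541942, had medians of -0.16 and -0.17 at 2 h and 0.17 and 0.31 at 8 h high. The part of print position and of the 8 h high arrays in these differences was not tested.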

How the results depend on the processing

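Calls at 2 h (714) numbered 1422 with block medians at 0 (58.9% positive, against 80.3%), 1264 with a running median over 51 probes (61.9%), 2371 with array weights (51.8%), 1383 from the 2 h arrays alone (62.0%), 1145 without the 8 h low regime (64.4%), 455 without the 5 plates (added after the data were seen) and 0 with arrays numbered 2 turned. Without the replicate block, which here is the channel orientation since number 2 marks the exchanged channels, they were 376. Leaving out 1 array gave 247 to 1145. The difference from 8 h high (579) gave 1323 with block medians (56.9% positive, against 73.9%), 1075 with the running median (63.4%), 242 without the block, 937 without 8 h low, 366 without the 5 plates and 198 to 937 leaving out 1 array. Probes apart from all 3 regimes (189) gave 74 without the block, 106 without the 5 plates and 101 to 179 leaving out 1 array. The cause was not tested. Plate medians at 0 gave 515, 393 and 138 calls, shared 329 positive and 54 negative calls, and turned cncr1 to -0.12. Of 45 named calls, 20 passed with plate medians at 0, 19 without the block, and 12 and 10 of 43 without array 1 or 2 of the 2 h regime. The probes of zmm16 and ivr2 passed in all 22 alternatives other than the turned arrays, which made no call, and those of ypt1 and glb1 in the 21 of these that gave a value. Probes apart from all 3 regimes could not be counted without 8 h low. With 2 arrays a regime and no intensities, precision is limited by array number.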
